A study of Mus musculus with 24 samples.

Results

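Long noncoding RNAs (lncRNAs) are transcripts that carry no long open reading frame, and the cytosines described here lie at their promoters and at no protein-coding promoter. A cytosine was taken when it lay within 1000 bases of an annotated transcription start of a lincRNA, antisense or processed_transcript gene in GENCODE M21 and more than 1000 bases from every start of a protein-coding gene, on mouse build mm10. This left 17509 of 762182 cytosines, called lncRNA-only promoter CpGs below, at 2074 of 9603 lncRNA genes of those types. Before coding starts were excluded, 57542 cytosines lay near a lncRNA start. All but 1 of the members were in CpG context, and 881 counted for more than 1 lncRNA gene. By their nearest lncRNA start, 9832 belonged to lincRNAs (transcripts between genes), 4747 to antisense RNAs and 2930 to processed transcripts. The values are percentages of methylated reads from reduced representation bisulfite sequencing (RRBS), a method that cuts DNA at CpG-rich sites and reads methylation after bisulfite conversion.

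The DNA came from the dentate gyrus, the hippocampal region in which new neurons arise throughout life, of female C57BL/6JRj mice. Young STD mice (n = 5) were 1.5 months old and lived in standard cages, Aged STD mice (n = 7) were 14 months old after standard housing, and Aged ENR mice (n = 7) were 14 months old after living in an enriched environment, a large enclosure shared by more animals and holding toys and tunnels. Every animal belonged to 1 inbred strain and 1 sex, mice of both housings lived in groups, and which mice shared a cage is not given in the labels, so that a cage and its housing cannot be told apart. The dissected tissue mixes granule neurons with glia and other cells, so that a different cell mix and a different methylation level per cell cannot be told apart, and a methylation table holds no RNA level against which to check the tissue label. Young ENR mice were not analysed here.

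Most promoters in mammals fall into CpG-dense stretches, called CpG islands, that are normally free of methylation, and CpG-poor promoters, which are often methylated in tissues where the gene is silent. Some lncRNAs are read from only 1 parental copy: at these imprinted genes, a germline mark leaves 1 allele methylated, so that a bulk sample reads an intermediate level. In female cells, 1 X chromosome is silenced by the lncRNA Xist, and CpG islands on that chromosome gain methylation, which also gives intermediate levels.

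The reference sequences of 6 promoters (GRCm38, the assembly behind mm10) are shown because the results return to them: 2 imprinted lncRNAs with intermediate methylation, 1 CpG-dense microRNA host that was unmethylated, and 3 promoters that led a comparison. Each is the 200-base stretch with the most measured CpGs, written 5′ to 3′ on the strand of the gene, with capitals for CpGs that have a measured value. The stretches are chr12:109540216-109540415 (plus strand, upstream of Meg3 and outside annotated genes), chr17:12741571-12741770 (plus strand, an intron of Airn and of the coding gene Igf2r), chr7:79515578-79515777 (plus strand, touching an exon of the lncRNA), chr14:105589519-105589718 (plus strand, inside the gene just past its start, over an exon), chr4:129906471-129906670 (plus strand, touching an exon) and chr13:63627407-63627606 (minus strand, upstream of the start and outside annotated genes).
Meg3: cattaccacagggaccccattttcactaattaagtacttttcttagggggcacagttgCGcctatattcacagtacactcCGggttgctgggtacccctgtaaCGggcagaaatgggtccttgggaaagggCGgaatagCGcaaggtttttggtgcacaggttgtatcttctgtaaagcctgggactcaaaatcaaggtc
Airn: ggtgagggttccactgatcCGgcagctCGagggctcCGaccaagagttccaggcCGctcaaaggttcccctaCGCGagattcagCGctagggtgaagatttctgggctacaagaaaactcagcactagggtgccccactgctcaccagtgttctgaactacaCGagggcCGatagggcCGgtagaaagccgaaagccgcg
Mir9-3hg: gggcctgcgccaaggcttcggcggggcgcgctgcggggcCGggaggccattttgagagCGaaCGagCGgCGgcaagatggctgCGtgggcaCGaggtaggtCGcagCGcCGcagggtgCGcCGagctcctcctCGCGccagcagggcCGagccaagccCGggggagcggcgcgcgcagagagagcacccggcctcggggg
9330188P03Rik: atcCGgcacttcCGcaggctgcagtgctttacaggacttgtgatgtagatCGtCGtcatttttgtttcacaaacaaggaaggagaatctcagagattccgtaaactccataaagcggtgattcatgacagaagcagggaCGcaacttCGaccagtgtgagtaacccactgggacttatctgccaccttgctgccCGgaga
E330017L17Rik: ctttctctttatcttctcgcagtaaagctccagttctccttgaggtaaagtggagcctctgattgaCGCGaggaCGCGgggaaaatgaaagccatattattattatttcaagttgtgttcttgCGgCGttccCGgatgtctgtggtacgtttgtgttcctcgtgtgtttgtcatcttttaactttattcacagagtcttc
Gm30709: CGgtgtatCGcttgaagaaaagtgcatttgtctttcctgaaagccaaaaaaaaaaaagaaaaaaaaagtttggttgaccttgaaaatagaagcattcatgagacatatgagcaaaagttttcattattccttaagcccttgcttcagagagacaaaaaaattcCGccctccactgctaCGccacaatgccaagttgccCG

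The Mir9-3hg stretch held 28 CpGs, 16 of them measured, and averaged 0.853% methylation in Young STD mice. The Meg3 and Gm30709 stretches held 5 CpGs each, and averaged 40.9% and 10.1%. The Airn stretch, with 13 CpGs, averaged 40.7% in the young mice, and E330017L17Rik, with 10, averaged 67.6%.

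The libraries covered between 11308 and 16706 of the lncRNA-only promoter CpGs, 2108 of which were measured in all 19 mice. The read counts behind a percentage are not in the table used here, so the depth per CpG is unknown and no counting interval is given. Libraries did not sample the same CpGs. A composition index, the mean Young STD methylation of the CpGs that a library covered, was 30.6 to 32.3% in Young STD mice but ran from 19.5 to 38% in Aged STD mice and from 23.4 to 36.2% in Aged ENR mice. Aged STD mice 3, 4 and 6 and Aged ENR mouse 4 stood apart with a low index, and Aged STD mouse 5 and Aged ENR mouse 6 with a high index. Results are therefore also given without these 6 libraries, with an index of 25 to 35, which leaves all 5 Young STD mice, 3 Aged STD mice and 5 Aged ENR mice.

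In Young STD mice, lncRNA-only promoter CpGs were mostly unmethylated, but less uniformly so than those at coding promoters. Their mean level was 19%, between 5.96% at the 377506 cytosines near coding starts and 55.5% at all other cytosines. Under 10% methylation were 65.6% of lncRNA-only promoter CpGs and 88.1% of coding promoter CpGs. At the other end, over 80% methylation was found at 10.1% of the lncRNA-only CpGs, against 2.56% near coding starts and 41.6% elsewhere.

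The lncRNA promoters were less CpG-dense than coding ones, with a median of 10 CpGs in the 200 bases around a measured cytosine against 17. Over all members, methylation was lower the denser the CpGs: the mean was 42.8% with 1 to 5 CpGs in 200 bases, 23.9% with 6 to 10, 5.46% with 11 to 20 and 3.69% with more. At matched density, coding promoters averaged 33.1, 12.6, 2.75 and 1.32%, lower in each of the 4 bins. Cytosines away from promoters averaged 65.6, 53.5, 29.7 and 5.4%. The lncRNA-only promoters lay between both classes in all 4 bins over all CpGs. This did not hold among CpGs measured in all 19 mice with more than 20 CpGs in 200 bases. There the lncRNA-only promoters, with only 87 CpGs, averaged 8.44% (above their own 5.18% with 11 to 20 CpGs), coding promoters 1.85% and other cytosines 4.67%. These levels are descriptions over CpGs, which share mice and promoters, and were not tested.

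**Figure D1:**
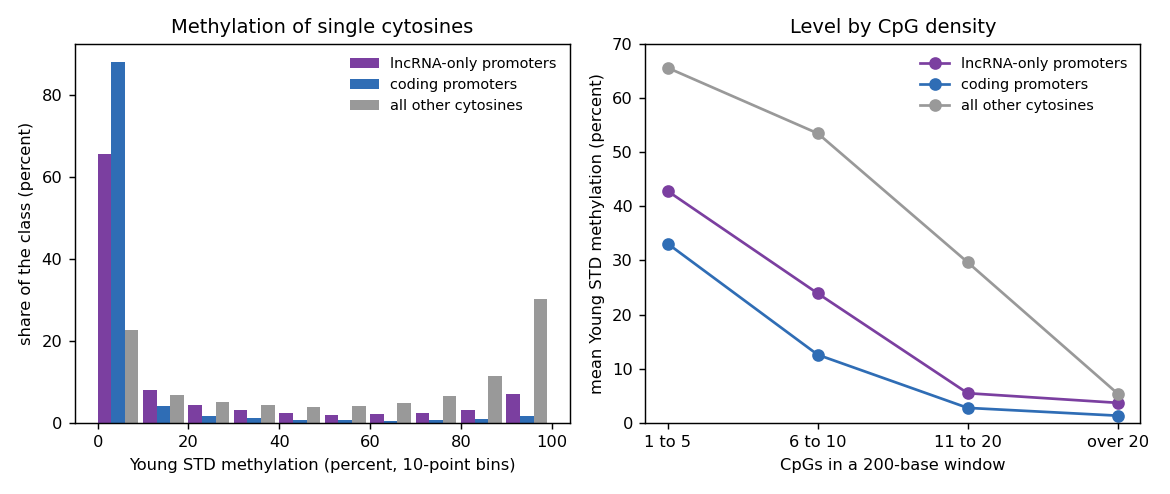
Left, share of cytosines (percent) in 10-point bins of mean Young STD methylation, for lncRNA-only promoters, coding promoters and all other cytosines; 65.6, 88.1 and 22.7% of them lie under 10%. Right, mean Young STD methylation (percent) by the number of CpGs in a 200-base window, over all cytosines with a Young STD value, where the lncRNA-only promoters lie between the other classes in all 4 bins.

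Over all members the levels also differed by distance to the start. Within 200 bases of a lncRNA start the mean was 15%, and in the outermost 200 bases of the window it was 26.8%, while the median density went from 12 to 8 CpGs in 200 bases. Upstream of the start, the outer 500 bases averaged 26.7% and the inner 500 bases 16.7%, against 16.9% over the first 500 transcribed bases. The CpGs measured in all 19 mice did not show this order, with 12.4% within 200 bases and 12.8% in the outermost 200 bases, and with 12, 11.2 and 13.4% in the outer upstream, inner upstream and first transcribed 500 bases. By gene type, processed transcripts were the least methylated with 12.3%, followed by lincRNAs with 19.6% and antisense RNAs with 21.7%. The 4752 members inside the body of a coding gene averaged 21.1% and the 12757 outside averaged 18.2%.

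The X chromosome held 370 members, and 30.8% of them read between 30 and 70% methylation, against 9.27% of the autosomal members. Coding promoters on X showed the same split, with 36.4% of cytosines in that range against 2.33% on autosomes.

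Averaged per gene, 1414 lncRNA promoters had at least 3 measured CpGs and a Young STD value, where each CpG was centred on its group means so that a mouse lacking some CpGs stayed comparable, which can place a value slightly under 0 or over 100%. Their median was 15.3%, against 2.06% for 14051 coding promoters. Under 10% lay 606 (42.9%), between 30 and 70% lay 244 (17.3%) and over 80% lay 236 (16.7%), whereas the coding promoters had 78.1, 5.7 and 2.85% in these ranges.

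The unmethylated class was led, by number of measured CpGs, by AC132455.1 (93 CpGs, 2.04% ± 0.755 (SD, n = 5) in Young STD), Dleu2 (78 CpGs, 0.778% ± 0.477 (SD, n = 5)), the host of the miR-15a and miR-16-1 cluster, and Gm47071 (71 CpGs, 1.8% ± 0.901 (SD, n = 5)). The best covered promoters between 30 and 70% were Gm26796 (44 CpGs, 53% ± 8.0 (SD, n = 5)), an antisense RNA on chromosome 12, the X-linked 9530027J09Rik (33 CpGs, 31.4% ± 7.24 (SD, n = 5)) and the imprinted Meg3 (33 CpGs, 32.7% ± 8.93 (SD, n = 5)). Over 80% they were AC133607.3 (17 CpGs, 86.3% ± 4.26 (SD, n = 5)), Gm20610 (16 CpGs, 85.6% ± 1.78 (SD, n = 5)) and Gm16280 (13 CpGs, 98% ± 2.11 (SD, n = 4)). At 14 months Dleu2 read 0.849% ± 0.302 (SD, n = 7) after standard and 1.2% ± 0.606 (SD, n = 7) after enriched housing, and Gm16280 98.7% ± 0.961 (SD, n = 4) and 98.7% ± 1.49 (SD, n = 7). Gm26796 read 38.9% ± 22.8 (SD, n = 7) and 55% ± 10.4 (SD, n = 7), and 9530027J09Rik 18.4% ± 10.8 (SD, n = 7) and 24.1% ± 11.4 (SD, n = 7), with wider spreads between mice.

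The lncRNA gene with the most measured CpGs was Gm26917 (112 CpGs, chr17:39843013-39846341, plus strand), singled out after its values were seen. Together with Gm42418 and AY036118 it lies beside and over the annotated ribosomal RNA gene CT010467.1 (chr17:39846353-39848827), a copy of the ribosomal DNA that cells carry in long repeated arrays. Reads from many copies can align there, so that a percentage averages over copies, and a value cannot be assigned to 1 promoter. Young STD mice read 16.4% ± 1.73 (SD, n = 5) at Gm26917, Aged STD mice 19.4% ± 2.86 (SD, n = 7) and Aged ENR mice 20.8% ± 3.05 (SD, n = 7), and the Aged STD minus Young STD difference was 3.02 points (SE 1.99, adjusted p = 0.812) by limma. At Gm42418 and AY036118 the same difference was -2.88 points (SE 3.73, adjusted p = 0.884) and -2.44 points (SE 3.39, adjusted p = 0.891), and it did not keep its sign, with 0.599 and -0.212 points without the 6 libraries and 1.32 and 1.18 with the composition index as a covariate. At Gm26917 these alternatives gave 4.23 and 4.78 points. The locus held 200 members and 2.42% of those measured in all mice.

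Imprinted or imprinted-cluster lncRNAs ranged from 3.58 to 84% methylation in Young STD mice. The highest value rests on 4 CpGs and the lowest on 3 mice. Of 21 imprinted or imprinted-cluster lncRNAs listed, 11 are annotated in the 3 gene types and 5 had a promoter value. H19, expressed from the maternal copy, stood at 84% ± 7.74 (SD, n = 5) in Young STD mice over 4 CpGs. Nctc1, which lies beside H19 and shares its imprinted region, stood at 40.9% ± 9.25 (SD, n = 4), Airn at 42.8% ± 9.64 (SD, n = 5), Meg3 at 32.7% ± 8.93 (SD, n = 5) and Kcnq1ot1, the antisense RNA that silences the paternal Kcnq1 cluster, at 3.58% ± 3.22 (SD, n = 3).

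Meg3 (maternally expressed gene 3, chr12:109541001-109571726, plus strand) read 22.9, 28.9, 30.5, 34 and 46.9% in the 5 Young STD mice. Aged STD mice read 10.5 to 27.4% with a median of 19.9%, and Aged ENR mice read 16.3 to 40.8% with a median of 23.8%. The groups overlapped, and the lowest values, 12 and 10.5%, came from Aged STD mice 3 and 4, whose composition index was also low (19.6 and 20.8%). The Aged STD minus Young STD difference was -13.3 points (SE 4.36, adjusted p = 0.641), and without the 6 libraries that stand apart it was -10.2 points. Aged ENR minus Aged STD was 6.04 points (SE 3.84, adjusted p = 0.95), and 0.79 points without them.

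Airn, the antisense RNA that silences Igf2r on the paternal copy (chr17:12741311-12860136, plus strand), was measured mostly at the CpGs printed above and read 32.7, 36, 40.2, 48.5 and 56.4% in Young STD mice. Aged STD mice read 0 to 47.9% with a median of 12.5%, and Aged ENR mice 1.71 to 72.4% with a median of 10.2%. Single aged mice were at 0 or near 0 (Aged STD mice 3 and 4 at 0, Aged ENR mouse 2 at 1.71%) while others were high (Aged ENR mouse 1 at 72.4%), so that the SD in aged mice was 19.4 and 29.4 points against 9.64 in young mice. The Aged STD minus Young STD difference of -22.9 points (SE 8.68, adjusted p = 0.73) became -4.53 points without the 6 libraries. Aged ENR minus Aged STD turned its sign, from 6.74 points (SE 12.1, adjusted p = 0.959) to -15 points. None of the 5 imprinted or imprinted-cluster promoters passed an adjusted p of 0.05 in any comparison by limma. At an unadjusted p under 0.05 stood 2, Meg3 and Airn, both lower in Aged STD than in Young STD mice, where 4.72% of all promoters stood lower at such a p.

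**Figure D2:**
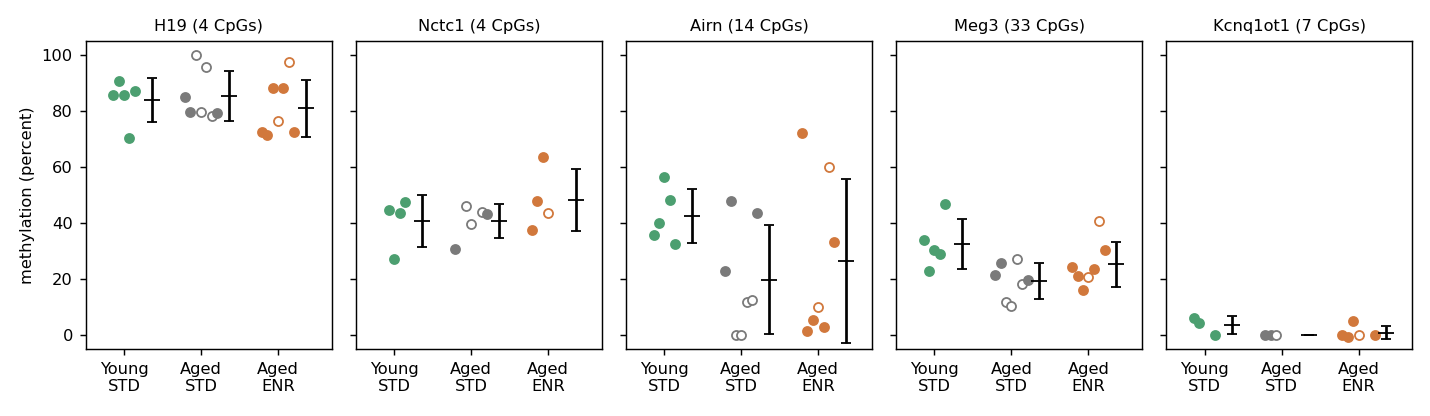
Promoter methylation (percent) of 5 imprinted or imprinted-cluster lncRNAs in each mouse, by group. Open circles are the 6 libraries with a composition index under 25 or over 35, and bars show the mean ± SD. H19 sits highest (84% in Young STD), Kcnq1ot1 lowest (3.58%), and Airn spreads widest among aged mice.

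Of the X-inactivation and X-linked lncRNAs, 5 had a promoter value, and they read lower than the X-linked members as a whole. Jpx, an activator of Xist, stood at 0.95% ± 0.762 (SD, n = 5) in Young STD mice over 37 CpGs, Ftx at 4.09% ± 1.38 (SD, n = 5), and 5530601H04Rik at 1.25% ± 1.2 (SD, n = 5). Tsix, the antisense repressor of Xist, stood at 12.1% ± 12.8 (SD, n = 5) and Firre, which anchors the inactive X near the nucleolus, at 13.8% ± 11.5 (SD, n = 5), with a wide range between mice. In Aged STD mice they ranged from 0.831% (Jpx) to 12% (Tsix), and in Aged ENR mice from 1.53% (Jpx) to 12.1% (Tsix). None of the 5 passed the test in any comparison, and none stood at an unadjusted p under 0.05 by limma.

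Nuclear and general regulatory lncRNAs were mostly unmethylated. Of 13 promoters, 11 were under 10% in Young STD mice, with a median of 1.72%. Among them were, named after their values were seen, Malat1, an abundant RNA of nuclear speckles, at 1.61% ± 1.34 (SD, n = 5), Neat1, the scaffold of paraspeckles, at 1.72% ± 1.91 (SD, n = 5), and, by number of CpGs, Lncpint, a p53-induced transcript, at 1.02% ± 0.827 (SD, n = 5) over 53 CpGs. Dancr at 1.79%, Miat at 0.406%, 1810026B05Rik at 1.13% and Fendrr at 2.42% were of the same kind. The exceptions, named after their values were seen, were Lncenc1 at 18.2% ± 15.3 (SD, n = 3) and Pvt1, the neighbour of Myc, at 54.8% ± 2.8 (SD, n = 5). None of the 13 passed the test, and 1, Neat1, stood at an unadjusted p under 0.05, in Aged STD against Young STD mice (0% ± 0 (SD, n = 6) against 1.72% ± 1.91 (SD, n = 5)), where 4.72% of all promoters stood lower.

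Brain and neuronal lncRNAs resembled them. Of 18 promoters, 16 were under 10%, and the highest, Pantr1, an RNA of neural progenitors, stood at 12.2% ± 3.92 (SD, n = 5). C130071C03Rik (Linc00461), near Mef2c, stood at 0.939%, and the hosts of the brain microRNAs miR-9 and miR-124, Mir9-3hg and Mir124a-1hg, at 0.893 and 1.65%. Sox2ot, which overlaps the stem-cell factor Sox2, stood at 8.74% ± 3.16 (SD, n = 5), and Dlx6os1 (Evf2), an RNA of interneuron development, at 9.95% ± 2.89 (SD, n = 5). For Dlx6os1 the aged groups read 10.2% ± 2.21 (SD, n = 7) and 10.6% ± 2.08 (SD, n = 7), within the spread of the young mice. None of the 18 passed the test, and 1, Six3os1, stood at an unadjusted p under 0.05, in Aged ENR against Aged STD mice, with 1.59% ± 0.767 (SD, n = 7) against 2.91% ± 0.56 (SD, n = 7) (difference -1.33 points (SE 0.487, adjusted p = 0.95)). Of all promoters, 1.76% stood lower at such a p in that comparison.

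Antisense lncRNAs of developmental transcription factors were mostly low. Of 20, 16 were under 10% in Young STD mice and the range was 0.247 to 32.4%. Nkx2-2os read 11%, Irx3os 8.17%, Hoxaas3 5.83% and Hoxa11os 3.8%. In Aged STD against Young STD mice, 1 stood at an unadjusted p under 0.05 with a higher value, Hoxb3os, and 1 with a lower value, Zfhx2os (20.4% ± 5.65 (SD, n = 7) against 32.4% ± 5.94 (SD, n = 5), difference -12 points (SE 3.61, adjusted p = 0.581)). In Aged ENR against Aged STD mice there were 3 higher, Zfhx2os with 12.2 points (SE 4.36, adjusted p = 0.95), Hoxb5os with 2.97 points (SE 1.02, adjusted p = 0.95) and Irx3os with 2.96 points (SE 1.28, adjusted p = 0.95), beside Six3os1, which this list shares with the brain list. In Aged ENR against Young STD mice Hoxb3os and Hoxb5os stood at such a p with higher values. Over all promoters, 4.72% stood lower and 1.73% higher at such a p in the first comparison, 1.76 and 2.51% in the second and 3.79 and 1.79% in the third. None of the 20 passed the adjusted test, and those beyond Irx3os, Six3os1 and Hoxb3os were named after their values were seen.

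Hoxb3os, antisense to the Hoxb3 homeobox gene (chr11:96343072-96354691, minus strand), read -1.74, 0, 0, 1.49 and 1.49% in Young STD mice over 15 CpGs. Aged STD mice read 1.67 to 15.3% with a median of 6.8%, and every Aged STD mouse lay above every Young STD mouse. Aged ENR mice read 0.555 to 10.6% with a median of 2.94% and overlapped both groups. The Aged STD minus Young STD difference was 6.58 points (SE 1.89, adjusted p = 0.569), and 8.86 points without the 6 libraries. Its neighbour Hoxb5os, named after its values were seen, stood in Young STD mice at 4.12% ± 1.44 (SD, n = 5), in Aged STD mice at 4.21% ± 1.59 (SD, n = 7) and in Aged ENR mice at 7.18% ± 1.72 (SD, n = 7).

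Hosts of small nucleolar RNAs and microRNAs completed the unmethylated class: of 16 promoters, 14 were under 10%, among them Snhg6 at 1.11%, Snhg8 at 0.702% and Mir99ahg at 4.01%. The exceptions were Mirt2 at 76.2% ± 8.0 (SD, n = 4), named after its value was seen, and Mir155hg. Mir155hg, host of the inflammation-linked miR-155, read 12.2, 12.7, 15.2, 19.8 and 23.9% in Young STD mice, 6.8 to 17.7% with a median of 9.34% in Aged STD mice and 5.45 to 15.5% with a median of 11.1% in Aged ENR mice. Its Aged STD minus Young STD difference was -6.26 points (SE 2.43, adjusted p = 0.735), and -7.46 points without the 6 libraries. None of the 16 passed the test. At an unadjusted p under 0.05 stood Mir155hg in both comparisons with Young STD mice and Mir99ahg in Aged ENR against Young STD mice, all with lower values in the aged mice, where 4.72% (Aged STD) and 3.79% (Aged ENR) of all promoters stood lower.

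In the order imprinted, X-linked, nuclear, brain, antisense and host, the median differences over these 6 lists were -3.58, -0.12, 0.0713, 0.0422, -0.0681 and -0.0785 points for Aged STD minus Young STD, against -0.0923 over all promoters. They were 6.04, 0.702, -0.112, -0.146, 0.483 and -0.0957 points for Aged ENR minus Aged STD, against 0.0881, and -2.92, -0.024, -0.00423, -0.132, 0.392 and -0.427 points for Aged ENR minus Young STD, against -0.0295. The imprinted median of -3.58 points is the value of Kcnq1ot1, which rests on 3 Young STD mice. The imprinted median of 6.04 points is the value of Meg3 and did not hold without the 6 libraries. There Meg3, H19 and Airn gave 0.79, -2.75 and -15 points, and Nctc1 and Kcnq1ot1 had too few mice to be tested. The medians over all promoters also moved when 1 mouse was left out. They became -0.0464 (Aged STD minus Young STD, without Young STD mouse 4) and 0.0243 points (Aged ENR minus Aged STD, without Aged ENR mouse 6). For Aged ENR minus Young STD the sign turned, to 0.00928 or 0.017 points without Young STD mouse 4 or 5. With 5 to 20 promoters in a list, the list medians are descriptions.

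Over the 2108 lncRNA-only promoter CpGs measured in every mouse, Young STD mice averaged 12.6% ± 1.36 (SD, n = 5), Aged STD mice 10.6% ± 1.74 (SD, n = 7) and Aged ENR mice 11.4% ± 1.14 (SD, n = 7). The single Young STD mice read 11.9, 11.7, 11.4, 14 and 14.3%, the Aged STD mice 8.06 to 13.5% with a median of 10.8%, and the Aged ENR mice 10.03 to 13.5% with a median of 11.5%. The groups overlapped. Mice with a low composition index read low (Aged STD mice 3, 4 and 6 at 8.06, 9.78 and 9.32%, Aged ENR mouse 4 at 10.03%) and those with a high index read high (Aged STD mouse 5 at 13.5%, Aged ENR mouse 6 at 13.5%), although all means run over the same CpGs.

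Differences in these means were -2.03 points for Aged STD minus Young STD, 0.807 for Aged ENR minus Aged STD and -1.23 for Aged ENR minus Young STD. Coding promoter CpGs measured in every mouse differed by -0.507, 0.202 and -0.305 points from lower levels, and all cytosines measured in every mouse by -2.02, 0.792 and -1.23 points. Relative to the reference group of each comparison, the differences were -16.1, 7.61 and -9.7% at the lncRNA promoters and -10.7, 4.76 and -6.43% at the coding promoters. For all cytosines measured in every mouse they were -9.88, 4.29 and -6.01%. Over all members, with each CpG centred on its group means, the differences were smaller, at -1.55, 0.74 and -0.806 points, or -8.11, 4.23 and -4.23%. No such centred value was computed for coding promoters. Without the 6 libraries that stand apart, the group means of the lncRNA-only CpGs were 12.6, 11.2 and 11.3%, and Aged ENR minus Aged STD was 0.0593 points. The library number, which begins with 27 or 37, separated the young mice: those of series 27 averaged 11.7% and those of series 37 14.1%. Within series 27 the 3 differences were -1.66, 0.825 and -0.833 points, and within series 37 -2.7, 0.784 and -1.92 points. The 3 comparisons share mice, so their differences are not independent.

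**Figure D3:**
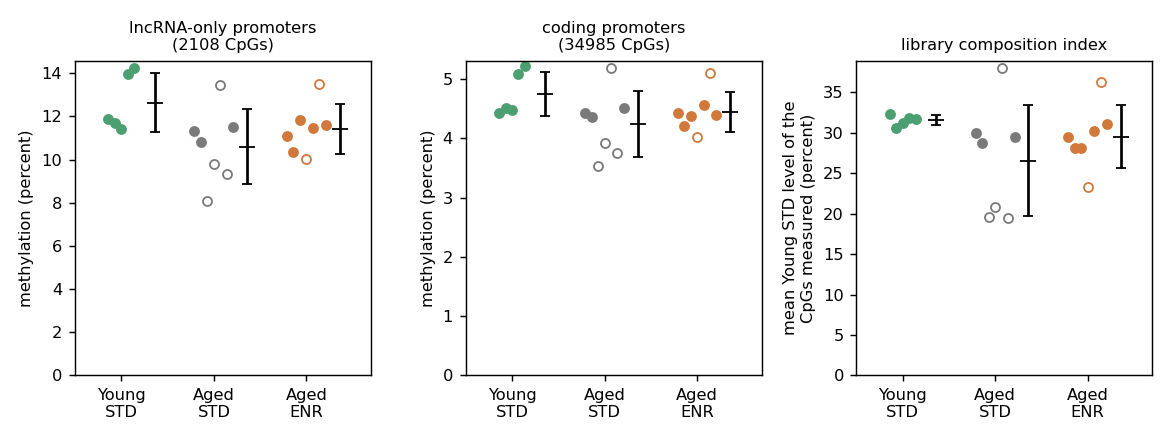
Mean methylation (percent) of each mouse over CpGs measured in all 19 mice at lncRNA-only promoters (left) and coding promoters (middle), and the composition index of each library (right); open circles are the 6 libraries with an index under 25 or over 35, and bars show the mean ± SD. Groups overlap in the left and middle panels, and the open circles are low or high in all 3.

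The comparison of Aged STD with Young STD mice asked how lncRNA promoters differ with age under standard housing. No lncRNA-only promoter CpG of 12541 tested passed the limma test, which asked for both an adjusted p below 0.05 and 25 points of difference (background 0% of all CpGs). At an unadjusted p under 0.05, 396 CpGs (3.16%) were lower in Aged STD mice, against 3.33% of all CpGs tested, and 106 (0.845%) were higher, against 1.09%. By size alone, 745 (5.94%) were lower by over 25 points, against 7.19% of all CpGs, and 269 (2.14%) were higher by as much, against 2.17%. The direction of the counts at an unadjusted p turned with the composition index as a covariate, to 209 lower (1.67%) and 400 higher (3.19%) of 12541, against 2.13 and 2.59% of all CpGs. When the 6 libraries were left out, they were 105 lower (1.49%) and 112 higher (1.59%) of 7057, against 1.85 and 1.5% of all CpGs. The 106 higher CpGs became 70 of 9655 (0.725%, against 1.07% of all CpGs) without Young STD mouse 2 and 64 of 10020 (0.639%, against 1.07% of all CpGs) without Young STD mouse 3. Differences over 25 points were most frequent where CpGs were sparse, at 13.7% of members with 1 to 5 CpGs in 200 bases and 3.04% of those with over 20. Antisense RNAs had 9.61%, lincRNAs 7.95% and processed transcripts 5.8%, and all CpGs tested had 9.35%. No share of all CpGs was computed by density or gene type. Over all members, the mean Young STD level was 42.8% in the sparsest bin and 3.69% in the densest. For the gene types, in the same order, it was 21.7, 19.6 and 12.3%. The part of the level in these shares was not tested.

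Per promoter, none of 1364 lncRNA promoters passed an adjusted p of 0.05 by limma (background 0% of 17661 promoters). At an unadjusted p under 0.05 stood 87 with a lower value in Aged STD mice (6.38%, background 4.72%) and 23 with a higher one (1.69%, background 1.73%). The median difference over the lncRNA promoters was -0.559 points and over all promoters -0.0923. With the composition index as a covariate the medians were -0.14 and -0.0465 points, and leaving out the 6 libraries gave -0.30 and -0.0916. The lncRNA median was -0.364 points without Young STD mouse 5 and -0.838 without Aged STD mouse 5. The composition of the libraries moved with these counts, and its part in them was not tested. With the composition index as a covariate, 52 (3.81%) were lower and 46 (3.37%) higher, against 2.93 and 3.72% of all promoters. Without the 6 libraries 47 (4.61%) were lower and 37 (3.63%) higher of 1020, against 2.63 and 2.83%, again with none at an adjusted p under 0.05.

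The promoters named next had the smallest p in their comparison and direction among those with at least 5 CpGs, and their values are descriptions, not tests. 9330188P03Rik (chr14:105589476-105632054, plus strand), of which a stretch just past the start is printed above, read 15.5, 38.2, 38.2, 38.4 and 41.6% in Young STD mice, -2.09 to 25.5% with a median of 7.73% in Aged STD mice and 7.4 to 54.8% with a median of 16.8% in Aged ENR mice. Young STD mouse 1 was far below its group, and Aged STD mouse 7 reached above it, so the groups overlapped. The Aged STD minus Young STD difference was -24.9 points (SE 5.26, adjusted p = 0.36) and -19.8 points without the 6 libraries.

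Gm15587, an antisense RNA with 25 CpGs (chr5:24366192-24383614, minus strand), read 9.78, 11.1, 11.3, 11.9 and 13.3% in Young STD mice and 1.68 to 9.78% with a median of 4.71% in Aged STD mice. The highest Aged STD mouse, number 3, and the lowest Young STD mouse both read 9.78%. The difference was -6.47 points (SE 1.47, adjusted p = 0.402). Gm39318, with 36.2% ± 18 (SD, n = 3) against 5.68% ± 8.33 (SD, n = 7), and Pitpnm2os2, with 64.8% ± 13.5 (SD, n = 5) against 38.3% ± 10.02 (SD, n = 7), were the next lower ones. Higher in Aged STD mice were, beside Hoxb3os, Gm28166 (89.9% ± 4.19 (SD, n = 6) against 78% ± 3.86 (SD, n = 4)), Gm26615 (2.29% ± 1.8 (SD, n = 7) against -0.409% ± 0.559 (SD, n = 5)) and E330017L17Rik.

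E330017L17Rik (chr4:129906216-129919787, plus strand) was high in the aged groups of both housings. Its 9 CpGs, most of them in the stretch printed above, read 51.4, 52.9, 70.3, 76.4 and 78.3% in Young STD mice, 67.9 to 100% with a median of 95% in Aged STD mice and 77.8 to 100% with a median of 93.8% in Aged ENR mice. The differences from Young STD mice were 24.7 points (SE 7.02, adjusted p = 0.569) and 27.9 points (SE 5.54, adjusted p = 0.557). Without the 6 libraries they were 18.5 and 25.7 points. The groups overlapped, with Aged STD mouse 7 and Aged ENR mouse 3 inside the range of the young mice, and both differences use the same 5 young mice.

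Among single CpGs measured in every mouse compared, those with the smallest p on the lower side were chr16:21908538 at the 2610020F03Rik promoter, which averaged 26.9% ± 7.9 (SD, n = 5) in Young STD mice against 1.82% ± 4.4 (SD, n = 7) in Aged STD mice (adjusted p = 0.666), and chr2:160926123 at the Gm14228 promoter, which averaged 29% ± 13.1 (SD, n = 5) in Young STD mice against 0% ± 0 (SD, n = 7) in Aged STD mice (adjusted p = 0.686). Those on the higher side were chr5:67463875 at the C330024D21Rik promoter, which averaged 82.5% ± 11.4 (SD, n = 5) in Young STD mice against 100% ± 0 (SD, n = 7) in Aged STD mice (adjusted p = 0.76), and chr11:59921017 at the 1810063I02Rik promoter, which averaged 70.5% ± 14.7 (SD, n = 5) in Young STD mice against 90.5% ± 11.2 (SD, n = 7) in Aged STD mice (adjusted p = 0.76).

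**Figure D4:**
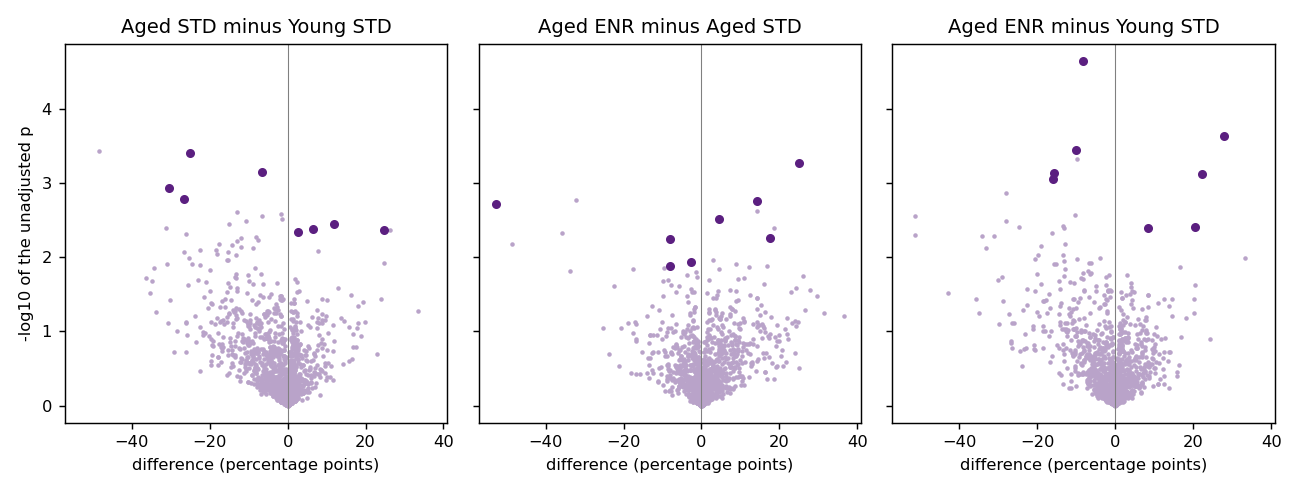
Difference (percentage points) of each lncRNA promoter with at least 3 CpGs against the −log10 of its unadjusted limma p, for the 3 comparisons; dark points are the named promoters with the smallest p in each direction among those with at least 5 CpGs. No point passes an adjusted p of 0.05. Lower and higher by over 10 points lie 12.8 and 2.57% (left, all promoters 4.75 and 1.05%), 3.54 and 7.52% (middle, 1.3 and 2.67%) and 9.72 and 3.14% (right, 3.45 and 1.33%). With the composition index as a covariate these are 8.87 and 5.57% (3.14 and 2%), 5.6 and 5.82% (1.88 and 2.15%) and 8.48 and 4.75% (2.84 and 1.98%).

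The comparison of Aged ENR with Aged STD mice asked how lifelong enrichment went with the state of these promoters at 14 months. No lncRNA-only promoter CpG of 12683 tested passed the test, as for all CpGs (background 0%). At an unadjusted p under 0.05, 113 (0.891%, background 0.798%) were lower and 182 (1.43%, background 1.45%) were higher in Aged ENR mice. By over 25 points, 272 (2.14%, background 2.62%) were lower and 474 (3.74%, background 4.53%) were higher. Of 1357 promoters none passed (background 0%), 28 (2.06%, background 1.76%) were lower and 36 (2.65%, background 2.51%) higher at an unadjusted p under 0.05. The median difference was 0.30 points over lncRNA promoters and 0.0881 over all promoters, and 0.025 and 0.0218 with the composition index as a covariate. Leaving out the 6 libraries gave -0.0617 and 0.0174 points. Without Aged STD mouse 3 or 5 the lncRNA median was 0.123 or 0.49 points, and without Aged ENR mouse 6 or 7 it was 0.142 or 0.198. The direction of the CpG counts at an unadjusted p turned with the composition index as a covariate, to 262 lower (2.07%) and 133 higher (1.05%) of 12683, against 1.78 and 1.35% of all CpGs, and without the 6 libraries, to 88 lower (1.34%) and 55 higher (0.837%) of 6572, against 1.4 and 0.97% of all CpGs. It also turned without Aged STD mouse 4 (143 lower and 131 higher, against 0.935 and 1.32% of all CpGs) or 6 (150 lower and 128 higher, against 0.933 and 1.22% of all CpGs), where the shares of all CpGs did not turn. Without Aged STD mouse 3 the lower CpGs numbered 122 and the higher 121 of 12013 (1.01%, against 1.25% of all CpGs), and the 36 higher promoters became 61 of 1284 (4.75%, against 2.98% of all promoters) without Aged STD mouse 5. With the composition index as a covariate the direction of the promoter counts turned as well, with 56 (4.13%) lower and 33 (2.43%) higher, and it turned over all promoters too, with 3.01 and 2.19%. When the 6 libraries were left out, 32 (3.21%) were lower and 30 (3.01%) higher of 998, against 2.65 and 1.33% of all promoters.

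Gm37896, a lincRNA on chromosome 1 (chr1:187447877-187462664, plus strand, 6 CpGs), had the smallest p among the higher promoters. Aged ENR mice read 66.6 to 87.3% with a median of 81.3%, Aged STD mice 40.2 to 68.7% with a median of 54.6%, and Young STD mice 38.6, 57.2, 61.8, 62.2 and 75%. Of the 7 Aged ENR mice, 6 lay above the highest Aged STD mouse, 68.7%. The difference was 25.1 points (SE 5.62, adjusted p = 0.95), and 29.4 points without the 6 libraries. Also higher were AC113961.1 (25.1% ± 7.93 (SD, n = 7) against 10.9% ± 6.55 (SD, n = 7)), Gm26755 (4.49% ± 3.57 (SD, n = 6) against -0.029% ± 0.599 (SD, n = 7)) and Gm15884 (70.6% ± 6.97 (SD, n = 7) against 53% ± 12.2 (SD, n = 7)), whose difference of 17.6 points became 7.79 without the 6 libraries.

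Lower in Aged ENR mice was above all Gm13201, an antisense RNA measured in few mice (chr4:148071392-148075420, minus strand), with 0, 0, 17.7, 38 and 47.1% in 5 Aged ENR mice and 66.7, 66.7 and 86.6% in 3 Aged STD mice. The difference of -52.7 points (SE 12.2, adjusted p = 0.95) rests on these 8 mice. Gm19951 (90.2% ± 4.6 (SD, n = 5) against 98.2% ± 2.45 (SD, n = 7)), Gm43177 (0.0448% ± 0.331 (SD, n = 7) against 2.75% ± 2.64 (SD, n = 7)) and Gm13652 (5.84% ± 1.99 (SD, n = 7) against 13.8% ± 7.71 (SD, n = 7)) followed. Among single CpGs with a lower value, the smallest p were at chr5:106470767 at the Gm26872 promoter, which averaged 9.48% ± 8.47 (SD, n = 7) in Aged STD mice against 0% ± 0 (SD, n = 7) in Aged ENR mice (adjusted p = 0.769), and chr3:34665338 at the Sox2ot promoter, which averaged 21.6% ± 17.6 (SD, n = 7) in Aged STD mice against 1.92% ± 3.47 (SD, n = 7) in Aged ENR mice (adjusted p = 0.769). Among those with a higher value they were at chr19:29067466 at the AC113961.1 promoter, which averaged 29.6% ± 20.7 (SD, n = 7) in Aged STD mice against 77.2% ± 23.4 (SD, n = 7) in Aged ENR mice (adjusted p = 0.769), and chr6:92940305 at the 9530026P05Rik promoter, which averaged 0% ± 0 (SD, n = 7) in Aged STD mice against 15.2% ± 13 (SD, n = 7) in Aged ENR mice (adjusted p = 0.769). The Sox2ot promoter as a whole went the other way from its single CpG. It was higher in Aged ENR mice by 1.75 points with library series as a covariate and by 2.6 points without the 6 libraries, and neither passed the test.

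The comparison of Aged ENR with Young STD mice differs in age and housing at once. No lncRNA-only promoter CpG of 12251 passed (background 0%). At an unadjusted p under 0.05, 329 (2.69%, background 2.56%) were lower and 139 (1.13%, background 1.4%) higher in Aged ENR mice. The direction of these counts turned with the composition index as a covariate, to 260 lower (2.12%) and 364 higher (2.97%) of 12251, against 2.36 and 2.42% of all CpGs, and not without the 6 libraries, with 238 lower (2.21%) and 124 higher (1.15%) of 10778, against 2.36 and 1.25% of all CpGs. By over 25 points, 546 (4.46%, background 5.21%) were lower and 305 (2.49%, background 2.39%) higher. None of 1368 promoters passed (background 0%), and 86 (6.29%, background 3.79%) were lower and 29 (2.12%, background 1.79%) higher at an unadjusted p under 0.05. Without the 6 libraries 72 (5.65%) were lower and 37 (2.9%) higher of 1274, against 3.52 and 2.24% of all promoters. With the composition index as a covariate the counts were 54 (3.95%) and 37 (2.7%), against 2.77 and 3.12%. Without Young STD mouse 3 the higher CpGs numbered 91 of 9793 (0.929%, against 1.41% of all CpGs) and the higher promoters 17 of 1259 (1.35%, against 1.51% of all promoters). Then 1 lncRNA promoter passed, Gm49445, with -37.5 points (SE 4.02, adjusted p = 0.0247), against -28.2 points (SE 6.8, adjusted p = 0.654) with all mice. Gm49445 was named after its values were seen.

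Gm30709, a lincRNA on chromosome 13 (chr13:63621500-63627379, minus strand), had the smallest p of all lncRNA promoters. Its 7 CpGs, 5 of them in the stretch printed above, read 6.8, 7.15, 8.33, 12.9 and 13.5% in Young STD mice, 0 to 7.16% with a median of 2.86% in Aged STD mice and 0 to 2.75% with a median of 1.06% in Aged ENR mice. Every Aged ENR mouse lay below every Young STD mouse. The Aged ENR minus Young STD difference was -8.42 points (SE 1.31, adjusted p = 0.407), and -8.55 points without the 6 libraries. With library series as a covariate it was -8.5 points with an adjusted p of 0.045, and it was then the single lncRNA promoter that passed.

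Hectd2os, an antisense RNA on chromosome 19, read 11.7, 12, 18.9, 19.8 and 23% in Young STD mice. Aged STD mice read 3.15 to 18.2% with a median of 8.81%, and Aged ENR mice 4.26 to 10.1% with a median of 6.94%, which again put each of them below every young mouse. The Aged ENR minus Young STD difference was -10.02 points (SE 2.1, adjusted p = 0.557). 9330160F10Rik (3.36% ± 4.53 (SD, n = 6) against 19.2% ± 8.11 (SD, n = 5)) and Gm37170 (12% ± 5.96 (SD, n = 7) against 28% ± 7.44 (SD, n = 5)) were the next lower ones. On the higher side, beside E330017L17Rik and Gm37896, were 1700030C10Rik, with 22.9, 23.2, 30.1, 32.8 and 33.2% in Young STD and 37.2 to 65.1% with a median of 52.6% in Aged ENR mice (22.2 points (SE 5.07, adjusted p = 0.557)), and the highly methylated C330024D21Rik (97.2% ± 3.53 (SD, n = 7) against 88.8% ± 3.6 (SD, n = 5)). Single CpGs with the smallest p in each direction were chr3:123448195 at the Gm35065 promoter, which averaged 9.07% ± 4.24 (SD, n = 5) in Young STD mice against 0% ± 0 (SD, n = 7) in Aged ENR mice (adjusted p = 0.776), and chr17:25561886 at the AC131323.3 promoter, which averaged 25.8% ± 9.38 (SD, n = 5) in Young STD mice against 3.29% ± 3.99 (SD, n = 7) in Aged ENR mice (adjusted p = 0.776), both lower, and 2 neighbouring CpGs of E330017L17Rik at chr4:129906604 (55% against 99.7%) and chr4:129906546 (60.5% against 99.2%), both higher in Aged ENR mice.

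**Figure D5:**
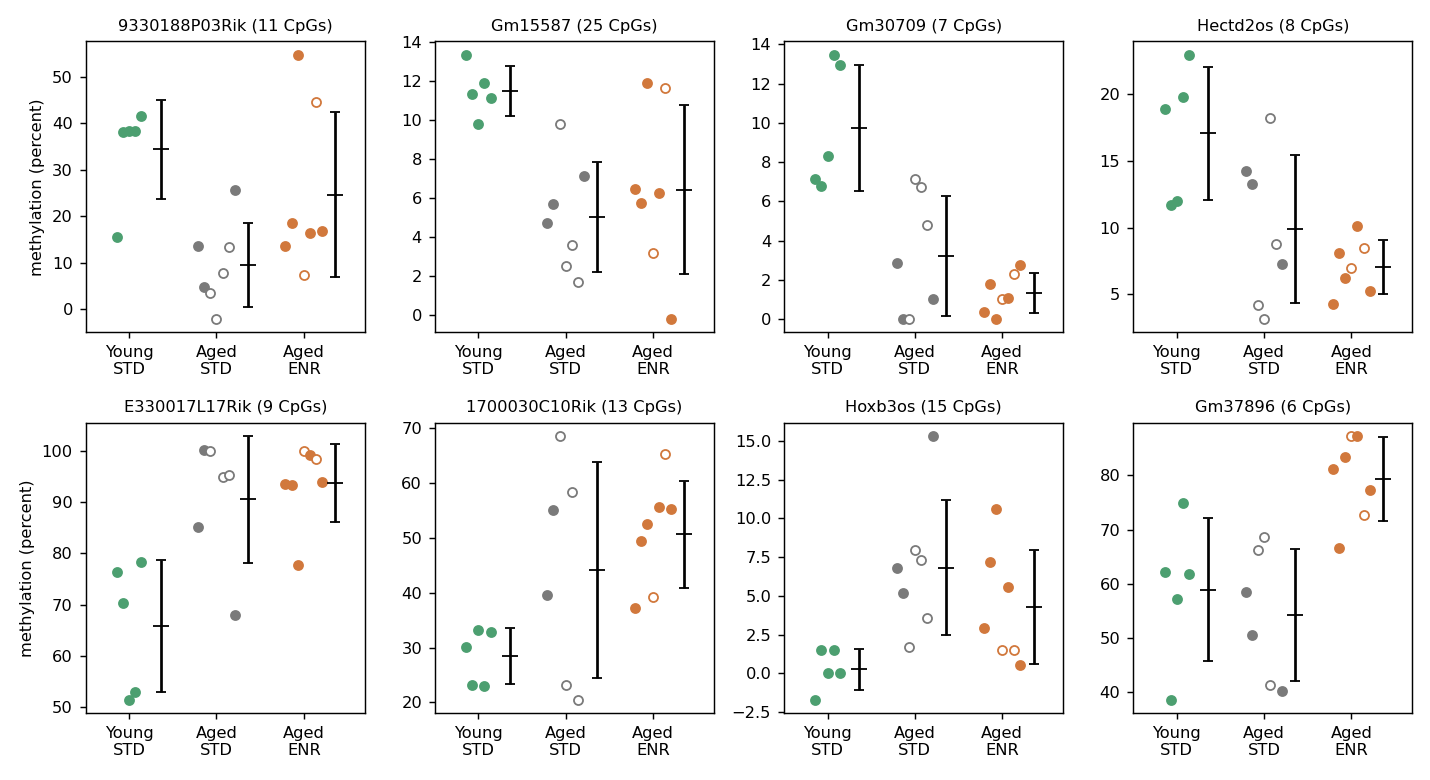
Promoter methylation (percent; each panel has its own axis, not starting at 0) of 8 lncRNAs with the smallest p in a comparison, in each mouse by group; open circles are the 6 libraries with a composition index under 25 or over 35, and bars show the mean ± SD. Aged ENR mice lie below all Young STD mice for Gm30709 and Hectd2os, and Aged STD mice lie above all Young STD mice for Hoxb3os.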

How the data were processed

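Methylation was measured by RRBS in the dentate gyrus of single mice, and the labels describe 24 libraries in 4 groups. The authors used Trim Galore and cutadapt for trimming, Bismark for alignment to mm10 and methylKit for the calls, and deposited a table with the percent of methylated reads per cytosine and mouse, left empty where a mouse fell short of a minimum number of reads. The submitters' processing notes name Trim Galore 0.4.0, cutadapt 1.8.1, Bismark 0.16.1 and methylKit 1.5.2. Without read counts, depth is unknown, other coverage limits could not be tried, and percentages from few reads weigh as much as deep ones. The 19 mice of Young STD, Aged STD and Aged ENR in the table were grouped by their labels, and each mouse was a replicate. Young ENR mice were not analysed here.

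Promoters were read from GENCODE M21 (GRCm38, positions counted from 1). Differences were tested with limma 3.58.1 in R 4.3.3, 2-sided, on the percent scale with a variance trended on the mean, over all CpGs (or all promoters with at least 3 CpGs) that had at least 3 mice in each group compared, with Benjamini-Hochberg adjustment over all of them, and the code was tested on simulated data. A CpG was called when its adjusted p was under 0.05 and its groups differed by over 25 points, and a promoter when its adjusted p was under 0.05. All adjusted p-values given come from these limma fits. Alternatives were the logit scale, no variance trend, all groups in 1 fit, CpGs measured in every mouse, library series or composition index as a covariate, the replicate number as a block, other windows and promoter values, and each mouse left out in turn. Leaving out the 6 libraries that stand apart was added after the data had been seen.

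Described promoters were up to 6 per gene list with the most CpGs, the 4 with the smallest p in each direction per comparison among those with at least 5 CpGs, and the 3 with the most CpGs under 10%, from 30 to 70% and over 80% methylation. Single CpGs were the 2 in each direction with the smallest p among those measured in every mouse compared. Members and lists were chosen with earlier results of these data known. Analyses used Python 3.11.15, pandas 2.3.3, numpy 2.4.6, scipy 1.17.1, pysam 0.24.0, matplotlib 3.10.9, arrow 21.0.0 and version 1.17.8 of data.table.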

Additional observations from a re-analysis of the deposited data

Results flagged for a closer look

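Among 183 groups of 4 to 7 mice at the described promoters and at the mean over all members, 17 held 1 mouse far from the rest by Dixon's criterion at the 95% level. The nominal rate of 1 in 20 would give 9.15, but it is set for independent groups of normally distributed values. The groups here share the same mice, include promoters chosen for a small p and hold values at or near the ends of the scale. The 9.15 is therefore not a chance count for them. Aged ENR mouse 3 was the distant mouse in 5 of them. It was low at E330017L17Rik (77.8%, where the nearest read 93.3%) and Gm16280 (95.6%, where the nearest read 98.1%), and high at Kcnq1ot1 (5.03%, where the nearest read 0%), Hoxa11os (8.51%, where the nearest read 4.48%) and Gm43177 (0.758%, where the nearest read 0%). Its composition index was not among the 6 that stand apart.

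Other Aged ENR mice far from their group were mouse 4 at Gm28166 (103%, where the nearest read 85.9%) and mouse 7 at Mir9-3hg (2.66%, where the nearest read 0.724%). In Aged STD mice, mouse 2 was high at Hoxaas3 (14%, where the nearest read 6.06%) and at Miat (5.32%, where the nearest read 1.92%), mouse 4 at Jpx (3.05%, where the nearest read 0.645%) and mouse 5 at Mir155hg (17.7%, where the nearest read 10.8%). In Young STD mice, mouse 1 was low at 9330188P03Rik (15.5%, where the nearest read 38.2%) and mouse 4 low at H19 (70.7%, where the nearest read 85.8%). Mouse 5 was high at 9330160F10Rik (33.4%, where the nearest read 17.6%), mouse 2 at Gm43177 (2.48%, where the nearest read 0.122%), and mouse 3 at Gm26755 (2.1%, where the nearest read 0.42%) and Mir99ahg (6.87%, where the nearest read 3.8%).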

How the results depend on the processing

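With no variance trend, 3 of 12541 member CpGs passed (all CpGs 120 of 527601) for Aged STD against Young STD mice, at Csmd2os (chr4:128163406, -72.1 points), 9530027J09Rik (chrX:48285514, -35.7 points) and Airn (chr17:12741741, -31.1 points), and 3 of 12251 (all CpGs 92 of 522279) for Aged ENR against Young STD, at Gm33994 (chr1:136579631, -54.9 points), Gm4598 (chr7:24661812, 34.1 points) and Gm44876 (chr7:125572089, 27.7 points). At Csmd2os, Gm33994 and Gm4598 all aged mice compared had the same value, 0 or 100%. With library series as a covariate, 1 lncRNA promoter passed, Gm30709. All other alternatives that keep every mouse or leave out the 6 libraries called 0 member CpGs and 0 lncRNA promoters. With each mouse left out in turn, member CpGs called were 0 in each comparison, and lncRNA promoters called were 0, or 0 to 1 for Aged ENR against Young STD (1 without Young STD mouse 3).

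Member CpGs over 25 points numbered 1014, 746 and 851 for Aged STD minus Young STD, Aged ENR minus Aged STD and Aged ENR minus Young STD (8.09, 5.88 and 6.95%, against 9.35, 7.15 and 7.6% of all CpGs), and 619, 448 and 515 within 500 bases of a start, where fewer CpGs were tested. Among CpGs measured in every mouse compared, which are fewer still, they numbered 76 of 2670 (2.85%, all CpGs 3.83%), 22 of 2489 (0.884%, all CpGs 1.08%) and 65 of 2621 (2.48%, all CpGs 2.94%). Without the 6 libraries the first and second counts were 532 of 7057 (7.54%, all CpGs 8.12%) and 431 of 6572 (6.56%, all CpGs 7.21%). The share of them that was lower, 73.5, 36.5 and 64.2%, became 54.4, 46.2 and 53.6% with the composition index as a covariate and 90.8, 13.6 and 69.2% for CpGs measured in every mouse compared. Without the 6 libraries the first and second shares were 64.3 and 45.7%. Over all CpGs these shares were 76.8, 36.6 and 68.5%, then 59.3, 45.7 and 58.5%, then 90.5, 22 and 80.2%, and without the 6 libraries 67.2 and 49%. The cause was not tested. With each mouse left out, counts ran 855 to 1048, 673 to 801 and 672 to 911, and shares 69.1 to 77.5, 31.6 to 42.9 and 59.7 to 67.3%.

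The differences in mean level were -4.23, 2.2 and -2.03 points as a plain mean over whichever CpGs a mouse had. Leaving out each mouse gave -2.51 to -1.61, 0.383 to 1.28 and -1.58 to -0.82 points, and the Aged ENR minus Aged STD value was 0.383 without Aged STD mouse 3, 0.457 without Aged ENR mouse 6 and 1.28 without Aged STD mouse 5. Leaving out the 6 libraries gave 0.0593 for it.

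Groups share replicate numbers, but did not meet the criterion for pairing, a correlation over 0.1 in every same-numbered pair, with correlations of -0.00666 to 0.125, -0.0781 to 0.0702 and -0.0772 to 0.0442 (over 0.1 for Young STD and Aged STD mice 3 and 5). With the replicate block, 0 member CpGs and 0 lncRNA promoters were called in each comparison. Of 2517 values of described promoters under alternatives, 4 moved by 1 SD or more, taken as the SD between mice of the 2 groups compared. Where mice spread widely, a change of sign can stay within this SD. Airn was such a case, where Aged ENR minus Aged STD went from 6.74 points to -15 points without the 6 libraries. Since read counts are not in the table, what depth limits could not be assessed.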
